A study of Mus musculus with 6 samples.

Results

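The mitochondrial ribosome translates the few messenger RNAs encoded by the mitochondrial genome, all of which specify core subunits of the respiratory chain and ATP synthase. Its RNAs come from the mitochondrial genome, whereas its proteins are encoded in the nucleus, made in the cytosol and imported. The large subunit holds the peptidyl transferase centre and the exit tunnel for the new chain, and the small subunit binds the messenger RNA and decodes it. Many of these proteins have bacterial counterparts and the others are specific to mitochondria.

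Transcripts of these proteins were described in Neuro2a, an established mouse neuroblastoma cell line, with and without D-serine, the mirror-image form of L-serine. All rows of the count table whose symbol begins with Mrpl or Mrps followed by a number were taken, which gave 77 of 24391 genes, 48 of the large subunit (Mrpl) and 29 of the small subunit (Mrps) by name. All 77 were expressed highly enough to enter the test, which covered 13366 genes, and none was a pseudogene. The 3 control libraries are from cells given vehicle and the 3 D-serine libraries from cells given 5 mM D-serine, each for 18 h in D-MEM(-SG) with 10% FBS, and polyadenylated RNA was sequenced. The line is the only cell source, no genetic change is labelled, and the labels do not say whether the replicates are separate cultures, so the p-values measure the spread between these libraries, which may be partly technical.

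The libraries held between 32518483 and 40024265 counts, and the member with the fewest had at least 248 in every library. All 13 sympathoadrenal and neuronal markers had counts, summing to between 1500 and 1570 CPM (counts scaled to the size of the library) in control and between 1600 and 1720 CPM with D-serine. The summed level of 6 fibroblast markers stayed between 4.61 and 6.90 CPM, with Col3a1 and Lum at 0, that of 5 glial markers between 14.4 and 16.2 CPM, and that of 5 blood markers between 0.510 and 1.49 CPM. D-serine replicate 1 stood apart from its fellows, with a chi-square statistic per degree of freedom of 17.7 and 13.9 against them, where the other pairs within a group lay between 3.88 and 6.54. In that library counts also shifted towards short genes. The slope of its deviation in log2 CPM on log2 exonic length was -0.0717, against a range of -0.0040 to 0.0356 in the other 5 libraries.

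Transcripts of mitochondrial ribosomal proteins were slightly more abundant with D-serine. The log2 fold change was above 0 in 64 of the 77 genes (83.1%, against 51.5% of all tested genes), with a median of 0.11, where the median of all tested genes was 0.0053. By the quasi-likelihood test of edgeR, with 0.05 as the limit for the adjusted p, 13 members rose, or 16.9% of them, beside 4.84% of all tested genes. None fell, beside 4.90% of all tested genes, and none was lower at an unadjusted p under 0.05 either, in edgeR, where 25 members were higher. Of the 13366 tested genes, 1846 were higher and 1923 lower at that unadjusted limit. In DESeq2 16 rose (beside 5.59% of all tested genes) and 0 fell (6.72%), and in limma-voom 12 rose (4.44%) and 0 fell (4.99%). All 3 D-serine libraries exceeded all 3 control libraries in 29 members (37.7%, against 16.2% of all tested genes), and the reverse held for 0 members (16.6% of all tested genes). In bulk RNA a higher level per cell and a larger share of cells with a high level cannot be told apart.

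**Figure D1:**
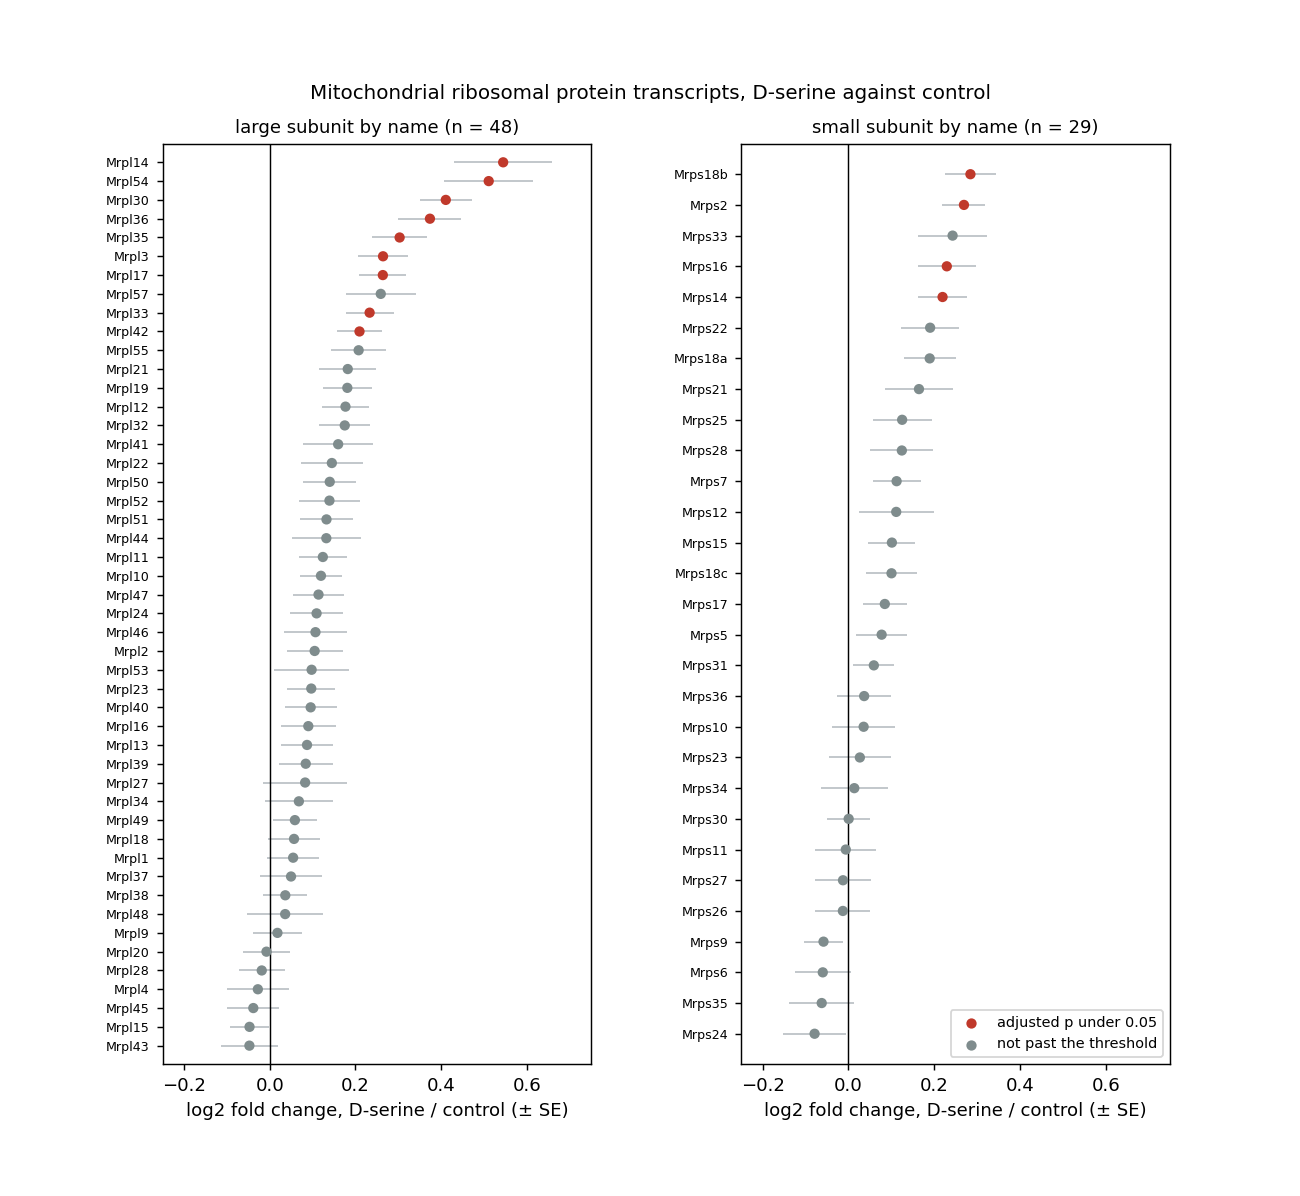
Fitted log2 fold change (D-serine over control, x axis) of each mitochondrial ribosomal protein transcript with its standard error as a horizontal bar, large subunit on the left and small subunit on the right, in order of size. Red points are the 9 large and 4 small subunit members past the threshold, and 64 of the 77 points lie right of 0.

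The members are short genes, and short genes as a whole were higher with D-serine. Members had a median of 1053 exonic bases and all tested genes one of 2834.5, and 62 of the 77 members were among the 3342 shortest tested genes (up to 1779 bases). Among these the median log2 fold change was 0.076 over all of them and 0.099 over the members, and 7.51% of all genes rose. After a smooth curve on exonic length had been taken out of each library (the length trend removed), the median over the members was 0.020, 50 of 77 had a log2 fold change above 0, and 12 rose (15.6%), beside 7.47% of all tested genes. Both Mrps9 and Mrps6 were lower in that fit, beside 8.05% of all tested genes. Of the 13 members that rose in the first fit, 10 were among these 12. The part of length in the individual changes was not tested beyond this.

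The library that stood apart moved with the members too. D-serine replicate 1 was the highest of the 6 libraries in 50 of the 77 members and the lowest in 0. The same share over all tested genes, or over short ones, is not given here. This is the library whose counts shifted towards short genes, and most members are short. Without D-serine replicate 1, 14 members rose (18.2%), beside 5.78% of all tested genes, and 0 fell, beside 6.76%. They included 12 of the 13. The median was then 0.074, with 53 members above 0. With the length trend removed and that library left out, the median was 0.025, and 12 members rose (15.6%, beside 6.67% of all tested genes) and 2 fell (beside 7.23%). Leaving out any other library changed the count of members, and that of all genes with it. Without control replicate 1 there were 2 members that rose (Mrpl30 and Mrpl36), beside 0.590% of all tested genes, and without control replicate 2 there were also 2 (Mrpl30 and Mrpl54), beside 0.346%. The count was 9 without the third control (1.86%), 5 without the third D-serine library (1.14%) and 18 without the second (5.19%).

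**Figure D2:**
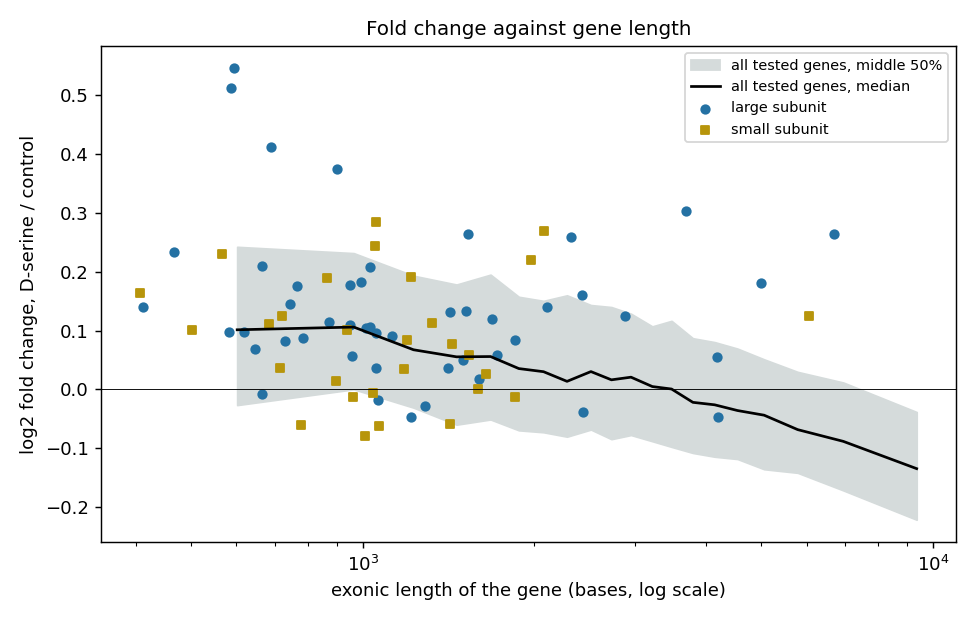
Log2 fold change (D-serine over control) against exonic length in bases (log scale) for the large subunit (circles) and small subunit (squares) members. The black line joins the medians of all tested genes in 20 bins of equal size, and the grey band is the middle 50% of each bin; the line falls with length, and Mrpl14, Mrpl54 and Mrpl30 are the 3 highest points.

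The members were sorted into lists of proteins with bacterial counterparts and of mitochondrion-specific ones, which hold 71 of the 77. Mrpl57, Mrps18a, Mrps18b, Mrps28, Mrps30 and Mrps36 are in neither list. Among the listed large subunit proteins with bacterial counterparts, 7 of 30 rose (23.3%), beside 4.84% of all tested genes. A log2 fold change above 0 was found in 26 of the 30 (median 0.12), beside 51.5% of all tested genes. Mrpl30, a homologue of bacterial L30, had 46.3, 40.5 and 43.6 CPM under vehicle (replicates 1 to 3) and 60.7, 55.3 and 57.2 CPM under D-serine. The groups did not overlap, and the increase was 1.33-fold (log2 fold change 0.41, SE 0.061, edgeR adjusted p = 0.00492). It is the 1 member past the threshold in all 17 alternative fits, with a highest adjusted p of 0.0434.

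Mrpl14, which lies at the face turned to the small subunit and is bound by the assembly factor Malsu1, had the largest fold change of the members. Its values were 7.69, 9.46 and 9.03 CPM in control and 13.7, 10.9 and 13.7 CPM with D-serine (log2 fold change 0.54, SE 0.11, adjusted p = 0.0149). D-serine replicate 2 was the closest to the controls, and the groups did not overlap. Malsu1 itself was at 11.3 ± 0.47 CPM under vehicle and 12.6 ± 1.10 CPM with D-serine (mean ± SD of 3 libraries) and did not pass the threshold (edgeR adjusted p = 0.277).

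Mrpl36, the homologue of bacterial L36, was at 18.2, 16.6 and 16.3 CPM under vehicle and at 21.3, 21.9 and 23.1 CPM with D-serine (log2 fold change 0.37, SE 0.074, adjusted p = 0.0127). Here D-serine replicate 3, not replicate 1, was the highest. Mrpl35 was at 30.6, 31.97 and 33.1 CPM under vehicle and at 42.0, 36.6 and 39.4 CPM with D-serine (log2 fold change 0.30, SE 0.065, adjusted p = 0.0160). Mrpl3, a protein close to the peptidyl transferase centre, was within 33.4 to 34.2 CPM in all 3 controls and at 41.8, 38.1 and 41.8 CPM with D-serine (log2 fold change 0.26, SE 0.059, adjusted p = 0.0182). The controls of Mrpl3 lay closer together than the D-serine libraries, whose lowest value still exceeded the highest control.

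Mrpl17 sits at the exit tunnel and has the longest exons of the members, 6712 bases. It was at 50.2, 55.2 and 55.7 CPM under vehicle and at 66.2, 64.3 and 63.1 CPM with D-serine (log2 fold change 0.26, SE 0.055, adjusted p = 0.0149). Its increase thus ran against the trend of long genes, and it passed with the length trend removed too. Mrpl33 rose from 40.7 ± 1.69 to 47.8 ± 1.65 CPM (mean ± SD of 3 libraries; log2 fold change 0.23, SE 0.056, edgeR adjusted p = 0.0241). Mrpl33 has 466 bases of exon and did not pass with the length trend removed.

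Of the 17 mitochondrion-specific proteins of the large subunit, 2 rose (11.8%, beside 4.84% of all tested genes). A log2 fold change above 0 was found in 15 of them (median 0.098). Mrpl54 was at 9.27, 12.1 and 10.9 CPM under vehicle and at 16.6, 15.3 and 14.2 CPM with D-serine, a 1.42-fold difference without overlap (log2 fold change 0.51, SE 0.10, adjusted p = 0.0142). Mrpl42 was at 73.8, 71.3 and 75.7 CPM under vehicle and at 90.2, 82.9 and 82.2 CPM with D-serine (log2 fold change 0.21, SE 0.052, adjusted p = 0.0268). Mrpl42 was among the 3 that lost the call with the length trend removed, and the others were Mrpl33 and Mrps16.

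**Figure D3:**
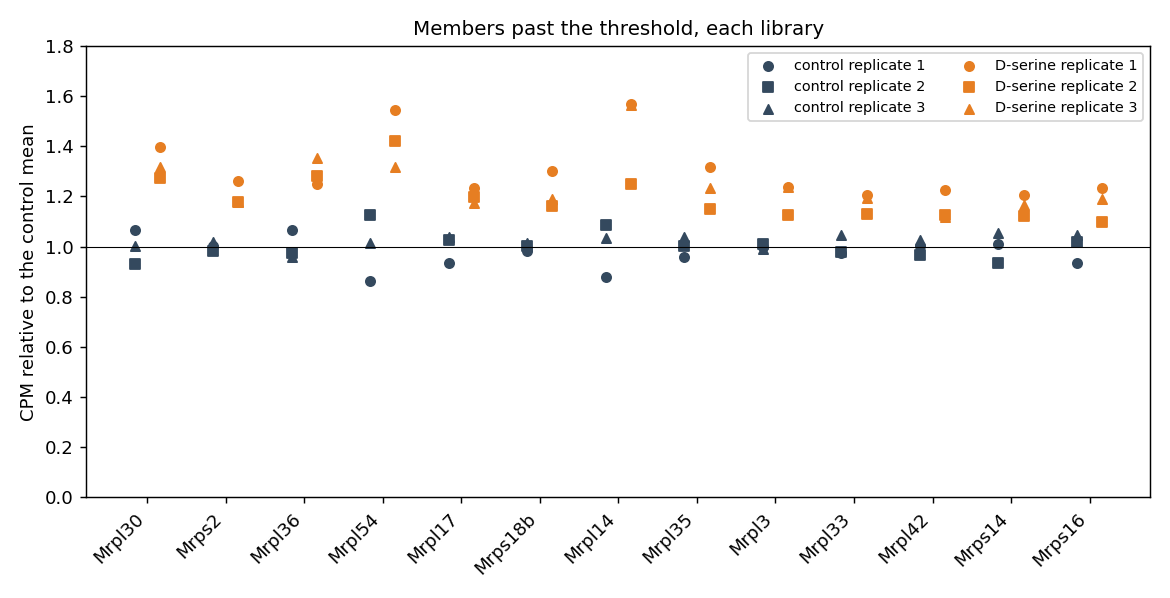
CPM of the 13 members past the threshold in each library, relative to the mean of the 3 controls, in order of p-value. Control libraries are dark and D-serine libraries orange, with the replicate shown by the marker; in each gene all 3 orange points lie above all 3 dark ones, and D-serine replicate 1 (orange circle) is the highest in most of them.

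In the small subunit, 3 of the 15 listed proteins with bacterial counterparts rose in edgeR, beside 4.84% of all tested genes. Of the 9 listed mitochondrion-specific ones, 0 rose in edgeR. At an unadjusted p under 0.05, 2 of these 9 were higher, beside 1846 of the 13366 tested genes. With a share of 4.84% among all tested genes, 9 genes are too few for a count of 0 to set this class apart. Whether the 2 classes of the small subunit differ was not tested. Mrps2, a homologue of bacterial S2, was at 59.3, 58.2 and 60.3 CPM under vehicle and at 74.7, 69.7 and 69.9 CPM with D-serine (log2 fold change 0.27, SE 0.050, adjusted p = 0.0110). The gap between the groups was several times the control spread of 1.05 CPM (SD). Mrps14, of the head of the subunit, rose from 50.01 ± 3.02 to 58.2 ± 2.07 CPM (mean ± SD of 3 libraries; log2 fold change 0.22, SE 0.058, edgeR adjusted p = 0.0323). Mrps16, of the body, rose as well, by a log2 fold change of 0.23 (SE 0.068, adjusted p = 0.0493), from 28.3 ± 1.6 to 33.2 ± 1.97 CPM. It passed in 6 of the 17 alternative fits.

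Mammals have 3 homologues of bacterial S18, of which only Mrps18c is in the list of proteins with bacterial counterparts. Mrps18b was at 35.5, 36.2 and 36.6 CPM under vehicle and at 47.0, 41.9 and 43.0 CPM with D-serine (log2 fold change 0.28, SE 0.059, edgeR adjusted p = 0.0149). Mrps18a was at 52.5, 59.2 and 59.3 CPM under vehicle and at 68.8, 63.5 and 62.7 CPM with D-serine (0.19, SE 0.061, adjusted p = 0.0648), and Mrps18c had a log2 fold change of 0.10 (SE 0.059, adjusted p = 0.290). Whether the 3 differ in their response was not tested. Despite its name, Mrps18a sits in the large subunit, as does Mrps30, whose log2 fold change was 0.0005 (SE 0.051, adjusted p = 0.997).

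Other members came close to the threshold without passing it. Mrpl12, of the stalk that recruits translation factors, was at 113 ± 5.35 CPM under vehicle and 127 ± 7.72 CPM with D-serine (mean ± SD of 3 libraries; log2 fold change 0.18, SE 0.054, edgeR adjusted p = 0.0555). Its partners at the stalk, Mrpl10 (0.12, SE 0.049, adjusted p = 0.132) and Mrpl11 (0.12, SE 0.056, adjusted p = 0.169), had fold changes of similar size. Mrpl19, Mrpl55, Mrpl57, Mrps33 and Mrpl32 had log2 fold changes of 0.18, 0.21, 0.26, 0.24 and 0.18 with adjusted p-values between 0.0593 and 0.0788. With the length trend removed, Mrpl19 (0.23, adjusted p = 0.00521) and Mrpl57 (0.24, adjusted p = 0.0452) passed. Mrpl19 shares 1145 exonic bases with Gcfc2, which runs the other way, and its counts are uncertain for that reason.

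Members were also grouped by position in the ribosome, and the share of all tested genes that rose was 4.84%. At an unadjusted p under 0.05 in edgeR, 1846 of the 13366 tested genes were higher. At the exit tunnel 1 of 8 members rose (Mrpl17) and the median log2 fold change was 0.11. In the central protuberance, which holds the top of the large subunit, 0 of 8 rose in edgeR (1 higher at an unadjusted p under 0.05), although all 8 were above 0 (median 0.089). With the length trend removed that median was -0.0013. In the head of the small subunit 1 of 8 rose (Mrps14), with a median of 0.047, which was -0.011 without D-serine replicate 1 and -0.023 with the length trend removed. In the platform 0 of 5 rose (0 at an unadjusted p under 0.05), with a median of 0.10, and in the body 1 of 7 (Mrps16), with a median of 0.11. With the length trend removed the medians were 0.012 in the platform, 0.015 in the body and 0.033 at the exit tunnel. Pooled over both subunits, 10 of the 45 listed proteins with bacterial counterparts (22.2%) and 2 of the 26 listed mitochondrion-specific ones (7.69%) rose. Mrps18b rose too, among the 6 in neither list. The median exonic lengths of the listed classes, in this order, were 1007 and 1313 bases. The difference between the classes was not tested.

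The large subunit was compared with the small one. In the large subunit 9 of 48 members rose (18.8%, beside 4.84% of all tested genes) and 42 had a log2 fold change above 0, with a median of 0.11. In the small subunit 4 of 29 rose (13.8%) and 22 were above 0, with a median of 0.085. The difference of these medians was 0.027, beside a spread between replicates of 0.021 on the log2 scale. For the medians themselves that spread was 0.0597 in the large and 0.0798 in the small subunit. Whether the subunits differ was not tested. Median exonic lengths were nearly equal at 1054 and 1053 bases. Within each library, the median deviation of the large subunit minus that of the small one was -0.0092, -0.018 and -0.030 in the controls and 0.0076, 0.040 and 0.038 in the D-serine libraries, on the log2 scale. The groups did not overlap in this measure, and their means were -0.019 ± 0.010 and 0.029 ± 0.018 (SD), a difference of 0.048. With Mrps18a and Mrps30 counted in the large subunit and Mrps36 left out, the difference of the fitted medians was 0.019. In 19 alternatives it lay between 0.015 and 0.045.

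The share of all counts that fell on the members was 0.338%, 0.344% and 0.350% in the controls and 0.397%, 0.360% and 0.371% in the D-serine libraries, in order of replicate number. The groups did not overlap. The mean share went from 0.208% ± 0.0030 to 0.230% ± 0.011 in the large subunit and from 0.136% ± 0.0034 to 0.146% ± 0.0077 in the small one (mean ± SD of 3 libraries). The shares of the small subunit were nearly equal in control replicate 3 and D-serine replicate 2. In the median deviation of the small subunit the groups overlapped, at -0.013 in control replicate 3 and -0.025 in D-serine replicate 2. Over all members these 2 libraries were at -0.029 and -0.012, and there the groups did not overlap. D-serine replicate 2 was the lowest of the 6 libraries in 13 members. Summed large subunit counts divided by summed small subunit counts do not depend on the scaling between libraries. This ratio was 1.54, 1.53 and 1.51 in the controls and 1.56, 1.57 and 1.58 in the D-serine libraries, so the groups did not overlap, by a margin of about the control SD of 0.016. D-serine replicate 1, the library richest in member counts, had the lowest of the 3 D-serine ratios. With the assignment by structure the ratio was 1.88, 1.89 and 1.85 in control and 1.91, 1.93 and 1.92 with D-serine.

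**Figure D4:**
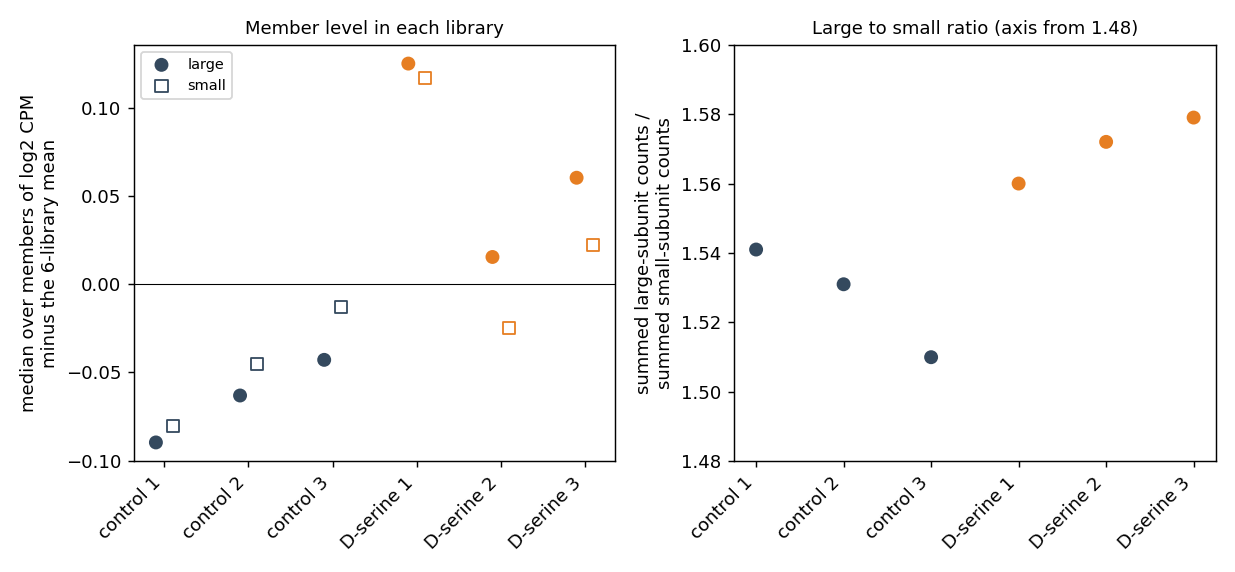
Left, the median over members of each library's log2 CPM minus the mean of the 6 libraries, for the large (filled circles) and small subunit (open squares). Right, the ratio of summed large to summed small subunit counts, on an axis that does not start at 0; control libraries (dark) lie between 1.51 and 1.54 and D-serine libraries (orange) between 1.56 and 1.58.

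The levels of the members differed far more among themselves than between treatments. Divided by exonic length, the mean level over the 6 libraries ran from 3.27 to 131 CPM per kilobase, with a median of 33.2 in the large and 38.0 in the small subunit. The highest in the large subunit were Mrpl20 (131 CPM per kilobase), Mrpl12 (127) and Mrpl42 (119), and each differed from the next in this order by less than the D-serine SD of Mrpl12 (8.13). The lowest were Mrpl41 (5.57), Mrpl57 (8.15) and Mrpl17 (8.81), and in the small subunit Mrps25 (3.27), Mrps23 (14.1) and Mrps33 (15.5). Mrps9 (89.3), Mrps31 (75.2) and Mrps18c (72.9) led the small subunit. Several low values belong to genes with long exons in the table, such as Mrps25, which shares 3536 exonic bases with Nr2c2, and Mrpl41, which shares 1002 with Dph7, both on the opposite strand. The most abundant transcript, Mrpl20, had 131 ± 4.53 CPM per kilobase in control and 130.3 ± 8.06 with D-serine (mean ± SD of 3 libraries), and its log2 fold change was -0.0075 (SE 0.054, edgeR adjusted p = 0.949).

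**Figure D5:**
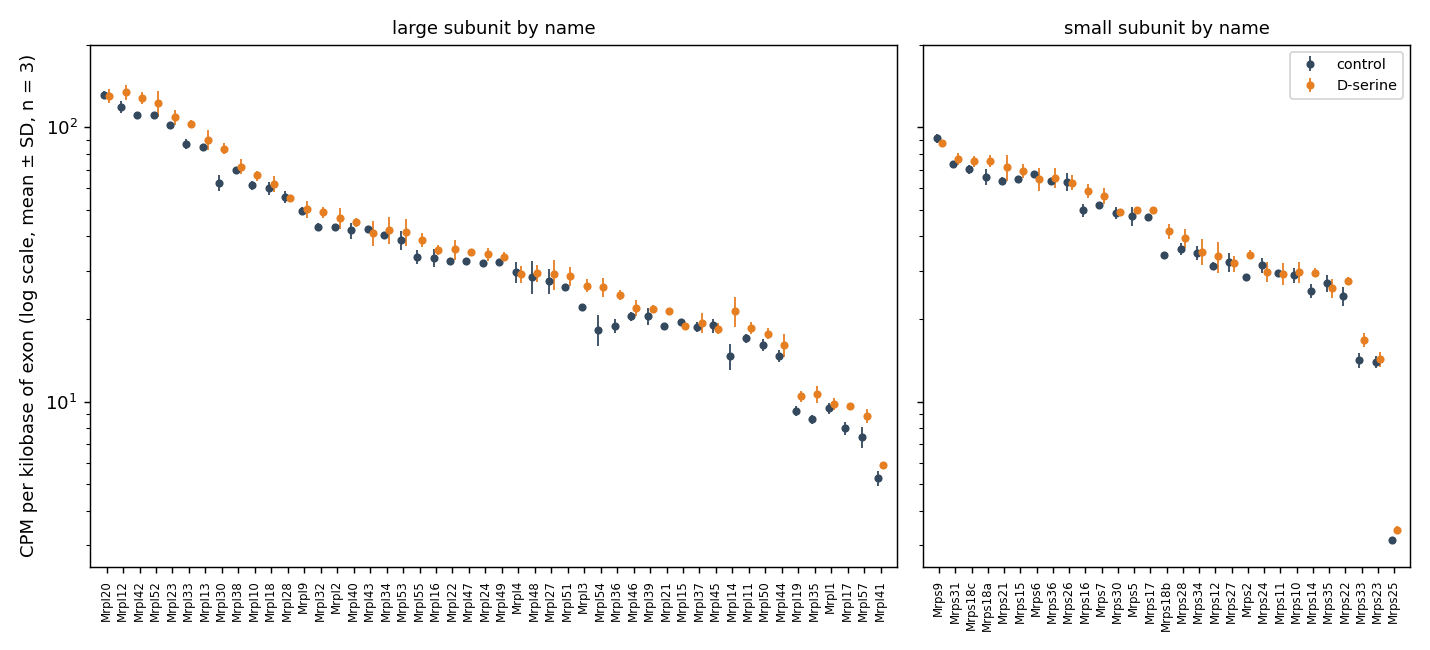
Mean level in CPM per kilobase of exon (log scale, bars are the SD of 3 libraries) of each member in control (dark) and D-serine (orange), in order of the mean over all libraries within each subunit. Levels span from 3.27 (Mrps25) to 131 (Mrpl20), and the distance between the groups is small beside the distance between genes.

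Promoters were read from RefSeq windows on GRCm38.p6, from 250 bases before to 50 bases after a transcript start, which were found for 68 of the 77 members (74 windows). Transcription factors of the ETS family (such as GABP), NRF1 and YY1 are known regulators of nuclear genes for mitochondrial proteins. On either strand, the ETS letters CCGGAAG occurred in 33.8% of the members' windows and 16.7% of the 12844 windows of tested genes (8.86% of all windows). The NRF1 letters GCGCANGCG occurred in 21.6% against 12.7% (6.25%), the YY1 letters AAGATGGCG in 10.8% against 2.83% (1.40%), the SP1 letters GGGCGGG in 43.2% against 45.2% (25.6%) and the TATA letters TATAAA in 6.76% against 7.09% (13.6%). In 1 place matches of different motifs overlapped. ETS, NRF1 or YY1 letters were present in 10 of 13 windows of the members that rose (76.9%) and in 31 of 61 windows of the others (50.8%). The share was 28.5% in the windows of tested genes. Some genes have several windows, so the 13 belong to 12 genes and the 61 to 56. This is a description without a test. A match does not show that a factor binds there.

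The following stretches run from 150 bases before to 30 bases after the start, for the members that rose and held a whole ETS, NRF1 or YY1 match in the stretch and no cut one; they are shown because these letters were more frequent in the members' windows than in those of all tested genes. Capitals mark the matches. Mrpl30 (chr1:37890327-37890506, plus strand) holds NRF1 letters at -102 and -82, Mrpl17 (chr7:105811058-105811237, minus strand) NRF1 letters at -49 and -11, and Mrpl14 (chr17:45686199-45686378, plus strand) NRF1 letters at 5. Mrpl3 (chr9:105053118-105053297, plus strand) holds ETS letters at -19, Mrpl33 (chr5:31613801-31613980, plus strand) ETS letters at -3, and Mrpl36 (chr13:73330859-73331038, plus strand) YY1 letters at -31.
Mrpl30: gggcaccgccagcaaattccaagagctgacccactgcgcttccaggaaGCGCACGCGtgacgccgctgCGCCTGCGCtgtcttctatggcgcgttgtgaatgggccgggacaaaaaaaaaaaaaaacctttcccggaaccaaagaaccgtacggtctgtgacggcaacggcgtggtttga
Mrpl17: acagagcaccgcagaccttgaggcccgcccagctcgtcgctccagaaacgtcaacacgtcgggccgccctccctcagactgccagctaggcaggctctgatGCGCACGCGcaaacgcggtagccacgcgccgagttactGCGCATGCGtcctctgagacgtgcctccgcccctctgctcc
Mrpl14: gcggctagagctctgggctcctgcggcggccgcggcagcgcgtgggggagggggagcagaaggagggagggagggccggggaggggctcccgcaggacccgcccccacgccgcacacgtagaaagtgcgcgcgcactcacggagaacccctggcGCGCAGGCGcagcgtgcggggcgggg
Mrpl3: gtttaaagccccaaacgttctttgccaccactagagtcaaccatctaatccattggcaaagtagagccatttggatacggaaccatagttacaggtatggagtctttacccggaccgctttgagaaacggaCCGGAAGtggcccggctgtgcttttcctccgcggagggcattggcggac
Mrpl33: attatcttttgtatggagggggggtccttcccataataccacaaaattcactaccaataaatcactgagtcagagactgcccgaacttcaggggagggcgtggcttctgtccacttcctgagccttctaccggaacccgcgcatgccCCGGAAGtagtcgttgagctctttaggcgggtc
Mrpl36: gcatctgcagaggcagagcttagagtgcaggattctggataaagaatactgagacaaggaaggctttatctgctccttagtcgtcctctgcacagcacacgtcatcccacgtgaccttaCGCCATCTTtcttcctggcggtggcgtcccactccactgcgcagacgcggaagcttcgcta

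Mrpl30 and Mrpl14 share a head-to-head start region with another gene, as do 27 of the members within 1000 bases of their start. In the 25 divergent pairs with a gene outside the set, 24 of the partners were tested. Of these 2 rose and 2 fell, beside 4.84% and 4.90% of all tested genes. The members of these 24 pairs had a median log2 fold change of 0.11 and their partners 0.00074. Exonic length was not taken into account in this contrast, and the partners' lengths are not given here. With the length trend removed, the median of all 77 members was 0.020. Mitd1, whose start lies 142 bases from that of Mrpl30, had a log2 fold change of 0.14 (SE 0.092, edgeR adjusted p = 0.334). Tmem63b, 154 bases from Mrpl14, had -0.11 (SE 0.057, adjusted p = 0.208). The 4 partners past the threshold, named after their values were seen, were Ppp1r10 beside Mrps18b (0.15, adjusted p = 0.0329), Ndufb5 beside Mrpl47 (0.24, adjusted p = 0.0261), Mtbp beside Mrpl13 (-0.16, adjusted p = 0.0300) and Ncapd2 beside Mrpl51 (-0.21, adjusted p = 0.0159). Mrpl46 and Mrps11 are such a pair within the set, with starts 42 bases apart, and had log2 fold changes of 0.11 (SE 0.073) and -0.0062 (SE 0.072).

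Mitochondrial ribosomal proteins with other names were fewer. Of 6 such genes 0 rose in edgeR (beside 4.84% of all tested genes). At an unadjusted p under 0.05, 2 were higher, beside 1846 of the 13366 tested genes. The median log2 fold change was 0.077. Of 25 genes for assembly and rRNA modification of the mitochondrial ribosome, 5 rose and 0 fell, with a median of 0.077. Mtg1, a GTPase that acts on the large subunit, was at 11.99, 11.7 and 11.6 CPM under vehicle and at 17.0, 15.6 and 15.02 CPM with D-serine (log2 fold change 0.43, SE 0.081, adjusted p = 0.0115). The 3 controls of Mtg1 lay close together and all D-serine libraries were above them. Mrm1, which methylates the large rRNA, rose by 0.31 (SE 0.069, adjusted p = 0.0182) and Mettl15, which methylates the small rRNA, by 0.30 (SE 0.080, adjusted p = 0.0328). Mpv17l2 (0.33, adjusted p = 0.0384) and Fastkd2 (0.21, adjusted p = 0.0457), both needed for large subunit assembly, also rose. With the length trend removed 6 of the 25 rose (24.0%, beside 7.47% of all tested genes), and Mpv17l2 did not pass (edgeR adjusted p = 0.0681). Leaving out 1 library took each of the 5 past 0.05 in at least 1 fit, with highest adjusted p-values between 0.0604 and 0.173.

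Of 16 mitochondrial translation factors and helpers, 1 rose (6.25%, beside 4.84% of all tested genes). In edgeR 0 fell (beside 4.90%), with 1 lower at an unadjusted p under 0.05 (beside 1923 of the 13366 tested genes). The gene that rose was Guf1, a GTPase of elongation (log2 fold change 0.20, SE 0.054, edgeR adjusted p = 0.0380). The elongation factor Tufm was at 64.0 ± 2.03 CPM under vehicle and 66.6 ± 3.92 CPM with D-serine (mean ± SD of 3 libraries; edgeR adjusted p = 0.526). Of 10 genes of mitochondrial transcription and replication, Tefm, an elongation factor of the mitochondrial RNA polymerase, rose (0.44, SE 0.12, adjusted p = 0.0331). The polymerase itself fell. Polrmt was at 41.4, 44.3 and 42.3 CPM under vehicle and at 33.5, 39.7 and 33.3 CPM with D-serine (log2 fold change -0.27, SE 0.071, adjusted p = 0.0342; -0.26 and adjusted p = 0.0107 with the length trend removed). The highest adjusted p when 1 library was left out was 0.120 for Tefm, 0.137 for Polrmt and 0.114 for Guf1.

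Families with a like role or location were set beside the members. In the first edgeR fit 4.84% of all tested genes were higher and 4.90% lower. At an unadjusted p under 0.05, 1846 of the 13366 were higher and 1923 lower. The 76 cytosolic ribosomal protein genes had a median log2 fold change of 0.093, with 6 higher (7.89%) and 0 lower in edgeR (25 and 0 at an unadjusted p under 0.05), and a median exonic length of 717.5 bases. Their median was 0.032 without D-serine replicate 1 (7 higher, 1 lower), 0.011 with the length trend removed (4 higher, 3 lower) and -0.013 with both (4 higher, 9 lower). The 79 nuclear genes of the respiratory chain and ATP synthase had a median of 0.092, with 9 higher (11.4%) and 0 lower in edgeR (25 and 0 at an unadjusted p under 0.05), and 724 bases. Their median was 0.033 without D-serine replicate 1 (8 higher, 1 lower), 0.0082 with the length trend removed (5 higher, 3 lower) and -0.017 with both (6 higher, 6 lower). The same medians of the mitochondrial ribosomal proteins were 0.074, 0.020 and 0.025. The 17 mitochondrial aminoacyl-tRNA synthetases had a median of 0.053, with 1 higher and 0 lower in edgeR (4 and 1 at an unadjusted p under 0.05), 3349 bases, and a median of 0.028 with the length trend removed (2 higher, 1 lower). None of these differences from the members was tested.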

How the data were processed

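The deposited table gives unnormalized read counts for each gene beside its summed exonic length, and per the file headers it was written by featureCounts. The submitters' processing notes name Trim Galore, HISAT2, featureCounts, DESeq2 and GRCm38/mm10, and their versions, any use of strand and the treatment of multi-mapping reads are not given in the sources used here. Gene starts of only 2 of the 77 members equal those of RefSeq GRCm38.p6. Mrpl23, for example, starts at 149719022 on chromosome 7 in the deposited table, where the stretch around its RefSeq start is 142532882 to 142533061. The deposited coordinates are thus not those of GRCm38, although the notes name it, and they were used for overlaps and distances within the table only. Pseudogenes are known for Mrpl23, Mrpl27, Mrpl48 and Mrps36, whose counts are therefore uncertain, and 10 members share exonic bases with another gene.

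Counts were tested with edgeR 4.0.16 (filterByExpr, TMM scaling, quasi-likelihood F test, no covariate, R 4.3.3), D-serine against control, with Benjamini-Hochberg adjustment over all 13366 genes, two-sided, at a threshold of 0.05. The standard error is the log2 fold change divided by the root of F. CPM are counts on TMM-scaled library sizes. The common coefficient of variation was 5.77%. Also tried were limma-voom (limma 3.58.1), the Wald test of DESeq2 1.42.0, other scalings and filters, the replicate block, each library's length trend removed as offsets (natural spline, 5 degrees of freedom), and leaving out each library. The model fits were tested on simulated data with and without a length trend. A limit on the share of false calls was set only for the data without one. The members and gene lists were chosen with earlier results of these data known. Named members were those past the threshold, the next by p up to 20, the 3 highest and lowest per subunit by level, the S18 and stalk proteins and Mrps30; in the related lists, up to 5 past the threshold; others were named after their values were seen.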

Additional observations from a re-analysis of the deposited data

How the results depend on the processing

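The median log2 fold change stayed above 0 in both subunits under every alternative run, from 0.037 to 0.15 in the large and from 0.011 to 0.12 in the small one. The median of all tested genes lay between 0.0019 (DESeq2 Wald test) and 0.0351 (upper quartile scaling). With the length trend removed 16 of the 29 small subunit members were above 0, beside 6743 of the 13366 tested genes. The number of members past the threshold was not stable. With 1 library left out, between 68 and 1699 genes passed, with 2 to 18 higher members, 2 to 13 in the large and 0 to 5 in the small subunit. Deviations of libraries with the same replicate number were nearly uncorrelated (-0.0687, 0.0197 and -0.0187). This does not settle whether the libraries were handled in pairs, since noise and the length shift also enter these deviations. With the replicate block 298 genes passed, and 5 members rose, 4 of the large and 1 of the small subunit. Library totals gave 20 higher members, 14 of them in the large subunit, and 1356 genes passed in that fit. With the length trend removed 2074 genes passed, 2 members were lower, both of the small subunit, and the large subunit median was 0.0467. Adding the replicate block gave 2 lower members, again 2 of the small subunit, and 0.0470, and leaving out D-serine replicate 1 gave 2 lower members, 1 of each subunit (Mrpl43 and Mrps6), and 0.0374. Mrps6 shares 145 exonic bases with Slc5a3. The cause was not tested.

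Over the 30 named members and 17 fits, 423 results kept their side of the threshold, 53 lost and 34 gained the call, and no called direction turned. Of the 13 members that rose, 12 lost the call in at least 1 fit, with highest adjusted p-values between 0.0647 and 0.186. All 13 members that rose were among the 67 without exonic overlap, a set chosen after seeing the data. Restricting the set to these 67 could therefore not change the count, and no new fit was run for it. Keeping pseudogenes was not run, since the table lists none.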
